A study of Rattus norvegicus with 4 samples.

Results

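The 43 genes described here encode the enzymes that split glucose to lactate, store and release it as glycogen, divert it into the pentose phosphate route, or oxidise its pyruvate in the tricarboxylic acid (TCA) cycle. They were taken by symbol from a deposited table of 13554 genes, and all 43 were found and passed the filter on low counts, 1 of them (Idh3b, spelled Idh3B in the table) through its Entrez gene identifier. They comprised 20 genes of glycolysis, 4 of the pentose phosphate route, 3 of the pyruvate dehydrogenase complex, 13 of the TCA cycle and its cytosolic partner dehydrogenases, and 3 of glycogen. The libraries were 2 of articular cartilage, which covers bone ends in joints, and 2 of xiphoid cartilage, the lower tip of the sternum, all from Sprague-Dawley rats aged 8 to 10 weeks with no treatment named. The labels give neither the joint nor the animals behind a library, so the p-values measure the spread between these libraries, which may be technical. Depth was alike, with totals of 8394769 and 7785225 counts for articular and 8434820 and 7351006 counts for xiphoid cartilage.

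Cartilage has no vessels, and its chondrocytes live in low oxygen and make most of their ATP by glycolysis, with lactate as the end product. Many steps of these pathways are catalysed by isoenzymes from separate genes, some of which are typical of one tissue: Pygm, Eno3 and Pfkm are the muscle forms of glycogen phosphorylase, enolase and phosphofructokinase. Low oxygen raises the transcription of many glycolytic genes through hypoxia-inducible factors, whereas the TCA cycle runs in mitochondria and feeds respiration.

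The glycolytic genes leaned toward articular cartilage, the TCA cycle genes leaned toward xiphoid cartilage, and several isoenzyme genes of the same reaction went opposite ways. Levels are CPM, the counts of a gene relative to the TMM-scaled library total. Each gene was tested with edgeR's quasi-likelihood test, with Benjamini-Hochberg adjustment over all 11202 genes tested and a threshold of 0.05, and log2 fold changes are articular over xiphoid. Of the 43 members, 14 were higher and 14 lower in articular cartilage, and 15 did not pass. Together 65.1% of the members were called, against 49.5% of all genes tested, with 25.0% of all genes higher and 24.5% lower. The median log2 fold change was -0.05 over the members and -0.02 over all genes tested, so the members as a whole had no common direction. In 37 of the 43 members the libraries of the tissues did not overlap, which is 86.0%, against 74.9% of all genes tested.

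**Figure D1:**
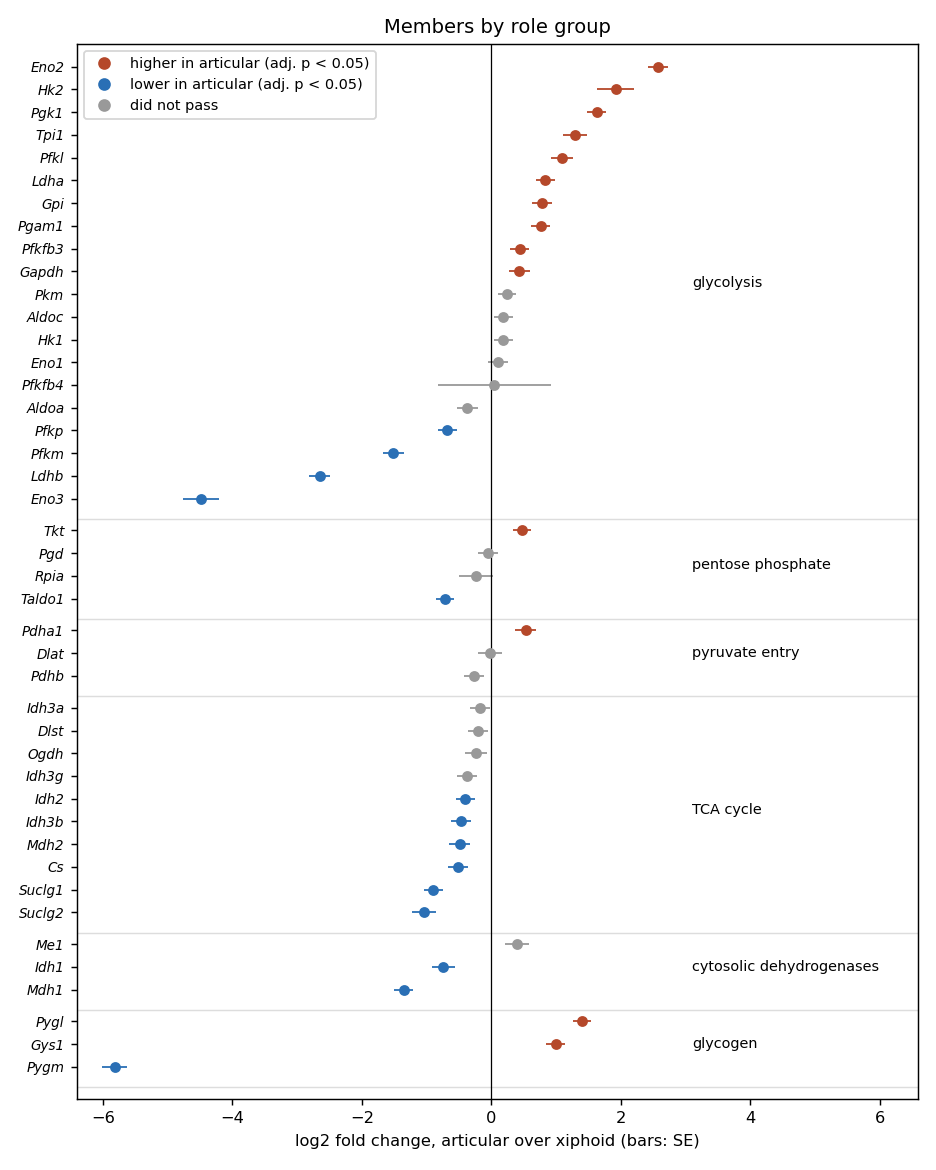
Log2 fold change of each of the 43 members, articular over xiphoid cartilage (x axis), with its standard error as a bar, in role groups from top to bottom. In glycolysis 10 genes were higher and 4 lower in articular cartilage, all 10 TCA cycle genes lay left of 0 with 6 called, and Pygm lay farthest left at -5.81.

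The dissected cartilages differed in the RNA of markers of other cell types, and several members are also expressed by such cells. Of 12 chondrocyte markers 7 were higher and 2 lower in articular cartilage, with sums of 133200 and 112000 CPM in articular and 36770 and 34080 CPM in xiphoid libraries. Of 18 skeletal muscle markers tested, 17 were lower in articular cartilage, and they summed to 315.2 and 242.7 CPM in articular against 11910 and 11900 CPM in xiphoid libraries. Tnni2, a fast-muscle troponin, held 85.2% and 86.7% of the articular sum, and without it the sums were 46.7 and 32.2 against 11700 CPM in each xiphoid library. Myh2, Myh7 and Pvalb had no count in either articular library. All 8 adipocyte markers were lower in articular cartilage, with sums of 98.33 and 84.51 CPM against 3135 and 2535 CPM, and Lep had no count there. All 12 erythroid markers were higher in articular cartilage (8414 and 8586 against 712.0 and 782.4 CPM), as were all 4 tested osteoclast markers (1322 and 1336 against 150.8 and 141.8 CPM). All 7 genes listed as markers of hypertrophic chondrocytes were higher as well, at 9417 and 9278 CPM in articular and 403.9 and 421.1 CPM in xiphoid libraries. Since 6 of 7 osteoblast and osteocyte markers were also higher there, this sum cannot be assigned to chondrocytes rather than bone cells. Of 8 fibroblast and perichondrium markers 5 were lower and 1 higher, at 1849 and 1969 CPM in articular and 17720 and 16490 CPM in xiphoid libraries. Without Gsn, which dominated the xiphoid sums, they summed to 1497 and 1631 against 3837 and 3754 CPM. Bone and marrow markers were higher in articular cartilage too, with 6 of 7 for osteoblasts and osteocytes, 8 of 10 tested for neutrophils and myeloid marrow, and 4 of 5 tested for B cells. The osteoblast list summed to 866.1 and 700.9 CPM in articular against 7.76 and 8.49 CPM in xiphoid libraries without Col1a1, and to 6382 and 6680 against 5969 and 6503 CPM with it. In bulk tissue fewer cells of a type and less RNA per cell cannot be told apart. The part of these cells in the results below was not tested.

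**Figure D2:**
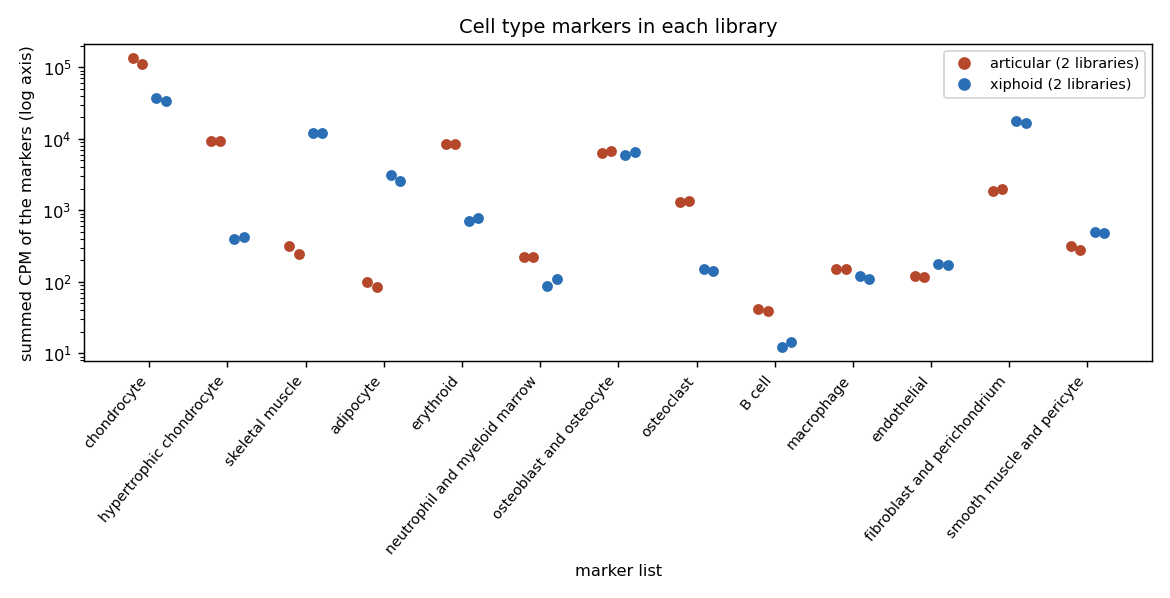
Summed CPM of the markers of each cell type (log axis) in the articular (left of each pair) and xiphoid libraries, 2 points per tissue. Muscle, adipocyte and fibroblast sums were lower, and erythroid, osteoclast and hypertrophic sums higher, in both articular libraries than in either xiphoid library.

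Isoenzyme genes went in opposite directions at the enolase, lactate dehydrogenase, glycogen phosphorylase and phosphofructokinase steps. The 250 bases before the annotated start are shown for 1 such pair of each of the first 3 steps, because the results turn on these pairs. The first gene of each pair was higher in articular cartilage and the second was lower. The sequences are from RefSeq, build GRCr8, and run 5′ to 3′ toward the start on the strand given. Capitals mark the core motif of hypoxia-inducible factors, written ACGTG or GCGTG and searched on both strands, and the E-box CAGCTG of myogenic factors, which reads the same on both strands.
Eno2, chr4:159267221-159267470, minus strand: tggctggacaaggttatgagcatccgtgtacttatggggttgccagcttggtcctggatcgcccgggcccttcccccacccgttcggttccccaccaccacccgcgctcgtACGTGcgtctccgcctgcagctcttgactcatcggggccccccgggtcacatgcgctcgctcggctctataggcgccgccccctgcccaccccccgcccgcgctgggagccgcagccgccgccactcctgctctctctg
Eno3, chr10:55868936-55869185, plus strand: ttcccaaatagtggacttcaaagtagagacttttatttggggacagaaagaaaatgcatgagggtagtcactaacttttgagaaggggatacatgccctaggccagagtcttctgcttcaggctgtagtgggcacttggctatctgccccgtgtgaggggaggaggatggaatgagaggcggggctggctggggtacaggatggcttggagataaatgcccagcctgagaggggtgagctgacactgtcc
Ldha, chr1:106507842-106508091, plus strand: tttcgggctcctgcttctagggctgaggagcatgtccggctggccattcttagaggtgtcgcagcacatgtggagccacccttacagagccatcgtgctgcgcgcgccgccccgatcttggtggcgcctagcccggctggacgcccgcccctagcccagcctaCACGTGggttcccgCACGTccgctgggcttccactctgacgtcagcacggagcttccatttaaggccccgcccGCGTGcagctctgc
Ldhb, chr4:177177409-177177658, minus strand: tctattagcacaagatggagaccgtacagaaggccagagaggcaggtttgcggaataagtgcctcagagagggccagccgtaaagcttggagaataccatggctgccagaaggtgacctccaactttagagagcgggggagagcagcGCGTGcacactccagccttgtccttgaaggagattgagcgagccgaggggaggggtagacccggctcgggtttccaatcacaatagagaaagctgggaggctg
Pygl, chr6:94476220-94476469, minus strand: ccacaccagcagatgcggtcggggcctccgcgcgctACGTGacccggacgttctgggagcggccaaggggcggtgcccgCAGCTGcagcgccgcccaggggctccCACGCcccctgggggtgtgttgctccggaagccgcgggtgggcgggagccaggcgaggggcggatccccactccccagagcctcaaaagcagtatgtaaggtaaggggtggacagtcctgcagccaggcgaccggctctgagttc
Pygm, chr1:213119555-213119804, plus strand: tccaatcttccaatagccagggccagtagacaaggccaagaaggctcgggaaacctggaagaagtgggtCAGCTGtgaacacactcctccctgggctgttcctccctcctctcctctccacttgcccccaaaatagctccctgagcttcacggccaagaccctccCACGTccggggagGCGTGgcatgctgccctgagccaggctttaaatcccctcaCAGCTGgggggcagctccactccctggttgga

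The window of Ldha held 4 matches of the hypoxia core, of which 2 overlap as the palindrome CACGTG, and that of Eno2 held 1. Among the other windows Ldhb held 1 match of the core, and Pygl and Pygm held 2 each. The E-box occurred 2 times before Pygm and 1 time before Pygl, and the Eno3 window held neither motif. RefSeq windows were matched for 41 of the 43 members (45 windows, since some genes have several), and not for Pgk1 and Idh3a. The hypoxia core stood in 9 of the 13 windows of articular-higher members (69.2%), in 6 of 14 windows of articular-lower members (42.9%) and in 10 of 18 windows of members that did not pass (55.6%). Within glycolysis it stood in 6 of 9 windows of articular-higher members (66.7%) and in 3 of 4 windows of articular-lower members (75.0%), and among articular-lower TCA cycle members in 1 of 6 windows (16.7%). The same core stood in 36.7% of all 33469 windows and in 55.6% of the windows of genes tested. The E-box stood in 4 of the 45 member windows (8.89%), in 4007 of all 33469 windows and in 1200 of the 9580 windows of genes tested (12.5%). By direction it stood in 3 of 13 windows of articular-higher members (23.1%), in 1 of 14 windows of articular-lower members (7.14%) and in 0 of 18 windows of the others. A match describes letters and not a bound site.

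Glycolysis begins with the phosphorylation of glucose by hexokinase. Hk2, the inducible hexokinase of muscle, fat and hypoxic cells, was at 28.6 and 21.2 CPM in articular against 8.47 and 4.52 CPM in xiphoid libraries. Both articular libraries lay above both xiphoid ones, and the log2 fold change was 1.92 (SE 0.29, adjusted p = 1.67e-04). Hk1, the constitutive form, was at 142 and 126 CPM in articular against 119 and 116 CPM in xiphoid libraries and did not pass (log2 fold change 0.18, SE 0.15, adjusted p = 0.323). Gpi, which converts glucose 6-phosphate to fructose 6-phosphate, was 1.71-fold higher (486.7 ± 47.8 against 283.9 ± 31.1 CPM, SD, n = 2 each, adjusted p = 0.00119).

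At the phosphofructokinase step, the committed step of glycolysis, the 3 subunit genes parted. Pfkl, the liver-type subunit, was at 290 and 213 CPM in articular against 124 and 111 CPM in xiphoid libraries (log2 fold change 1.10, SE 0.17, adjusted p = 2.12e-04). Pfkm, the muscle-type subunit, was at 71.4 and 55.2 CPM in articular against 184 and 178 CPM in xiphoid libraries (log2 fold change -1.51, SE 0.16, adjusted p = 1.18e-05). The libraries of the tissues did not overlap for either gene. Pfkp, the platelet-type subunit, was 1.61-fold lower in articular cartilage (103.0 ± 4.90 against 165.3 ± 11.7 CPM, SD, n = 2 each, adjusted p = 0.00213). The 3 genes together summed to 467.9 and 368.2 CPM in articular and 481.4 and 446.2 CPM in xiphoid libraries, so their sums overlapped. Pfkl took 62.0% and 58.0% of these counts in the articular libraries, against 25.8% and 25.0% in the xiphoid libraries. Pfkm averaged 15.1% in articular and 39.0% in xiphoid libraries, without overlap. These shares are of counts not divided by transcript length, so each is compared with itself between tissues and not with that of another gene.

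Pfkfb3 makes fructose 2,6-bisphosphate, the activator of phosphofructokinase, and was at 107 and 104 CPM in articular against 77.4 and 78.5 CPM in xiphoid libraries (log2 fold change 0.44, SE 0.15, adjusted p = 0.0252). That call was lost without either xiphoid library (adjusted p = 0.179 with xiphoid replicate 1 removed, 0.155 with xiphoid replicate 2 removed) and in DESeq2 (0.0518). Pfkfb4, its relative, was near the detection limit, with 21 and 9 counts in articular against 28 and 1 counts in xiphoid libraries, and did not pass (adjusted p = 0.97). Without xiphoid replicate 1 Pfkfb4 was called higher in articular cartilage (log2 fold change 3.62, adjusted p = 0.0361), so that value rests on the single remaining xiphoid count.

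**Figure D3:**
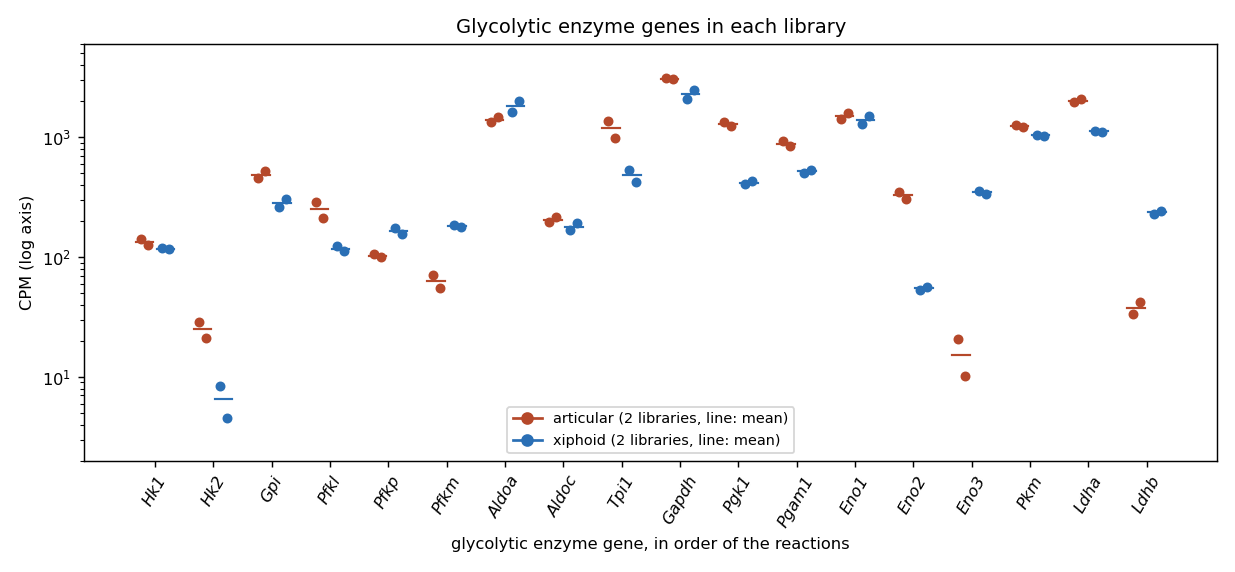
CPM (log axis) of 18 glycolytic genes in the order of the reactions, with 2 articular points (left) and 2 xiphoid points (right) per gene and a line at each mean. Pgk1, Tpi1 and Eno2 were higher, and Pfkm, Eno3 and Ldhb lower, in both articular libraries, while the points of Eno1 overlapped.

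The middle of the pathway was divided between genes that rose and abundant genes that did not pass. Pgk1, phosphoglycerate kinase, which makes the first ATP of the payoff phase, was at 1331 and 1248 CPM in articular against 407 and 427 CPM in xiphoid libraries. It was 3.09-fold higher in articular cartilage, with libraries far apart (log2 fold change 1.63, SE 0.15, adjusted p = 2.62e-06). Tpi1, triosephosphate isomerase, was at 1374 and 993 CPM in articular against 536 and 426 CPM in xiphoid libraries (log2 fold change 1.30, SE 0.19, adjusted p = 1.18e-04). Both articular libraries lay above the xiphoid ones. Tpi1 overlaps Spsb2 in the annotation, whose log2 fold change was -1.42. Pgam1, the widely expressed phosphoglycerate mutase, was 1.70-fold higher (880.9 ± 58.2 against 518.6 ± 19.2 CPM, SD, n = 2 each, adjusted p = 9.78e-04). Gapdh, often used as a reference gene, was at 3129 and 3043 CPM in articular against 2082 and 2481 CPM in xiphoid libraries, 1.35-fold higher (adjusted p = 0.0362). The Gapdh call did not hold when a library was left out: the adjusted p was 0.0636 with articular replicate 1 removed, 0.371 with xiphoid replicate 1 removed and 0.0883 with xiphoid replicate 2 removed.

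The aldolase genes and pyruvate kinase did not pass the test, which does not show that their levels were equal. Aldoa, the aldolase of muscle and red cells, was at 1334 and 1471 CPM in articular against 1635 and 1989 CPM in xiphoid libraries, without overlap, and did not pass (log2 fold change -0.37, SE 0.16, adjusted p = 0.0727). Aldoc, the brain-type aldolase, had a log2 fold change of 0.19 (adjusted p = 0.311). Pkm, pyruvate kinase, was at 1257 and 1207 CPM in articular against 1045 and 1033 CPM in xiphoid libraries (log2 fold change 0.25, SE 0.14, adjusted p = 0.181).

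The enolase genes went apart as well. Eno2, the neuronal form, was at 349 and 306 CPM in articular against 53.6 and 56.3 CPM in xiphoid libraries, 5.96-fold higher in articular cartilage (Entrez gene 24334, log2 fold change 2.57, SE 0.15, adjusted p = 6.17e-08). Eno3, the muscle form, was at 20.6 and 10.1 CPM in articular against 358 and 333 CPM in xiphoid libraries, 22.4-fold lower in articular cartilage (Entrez gene 25438, log2 fold change -4.49, SE 0.28, adjusted p = 6.95e-07). Without articular replicate 1, the higher of its libraries, the log2 fold change of Eno3 was -5.09. Eno1, the widely expressed form, was at 1416 and 1583 CPM in articular against 1279 and 1511 CPM in xiphoid libraries, overlapped between tissues and did not pass (adjusted p = 0.612). The 3 genes together summed to 1785 and 1899 CPM in articular and 1691 and 1901 CPM in xiphoid libraries, an overlap, while the share of Eno2 counts was 17.8% ± 2.41 in articular and 3.07% ± 0.148 in xiphoid cartilage (SD, n = 2 each). The share of Eno3 counts was 0.843% ± 0.437 and 19.4% ± 2.59. In the genome annotation Eno3 overlaps Spag7, whose log2 fold change was -0.71, and reads from the shared stretch cannot be assigned without strand.

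Lactate dehydrogenase ends the pathway by turning pyruvate into lactate, for which the A subunit is the favoured form, while the B subunit is typical of heart and other oxidative tissue. Ldha was at 1952 and 2069 CPM in articular against 1138 and 1112 CPM in xiphoid libraries (log2 fold change 0.84, SE 0.15, adjusted p = 5.44e-04). Ldhb was at 33.3 and 42.0 CPM in articular against 230 and 243 CPM in xiphoid libraries, 6.29-fold lower (log2 fold change -2.65, SE 0.17, adjusted p = 1e-07). Ldhb took 1.67% and 1.99% of the counts of the pair in articular libraries, against 16.8% and 17.9% in xiphoid libraries.

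**Figure D4:**
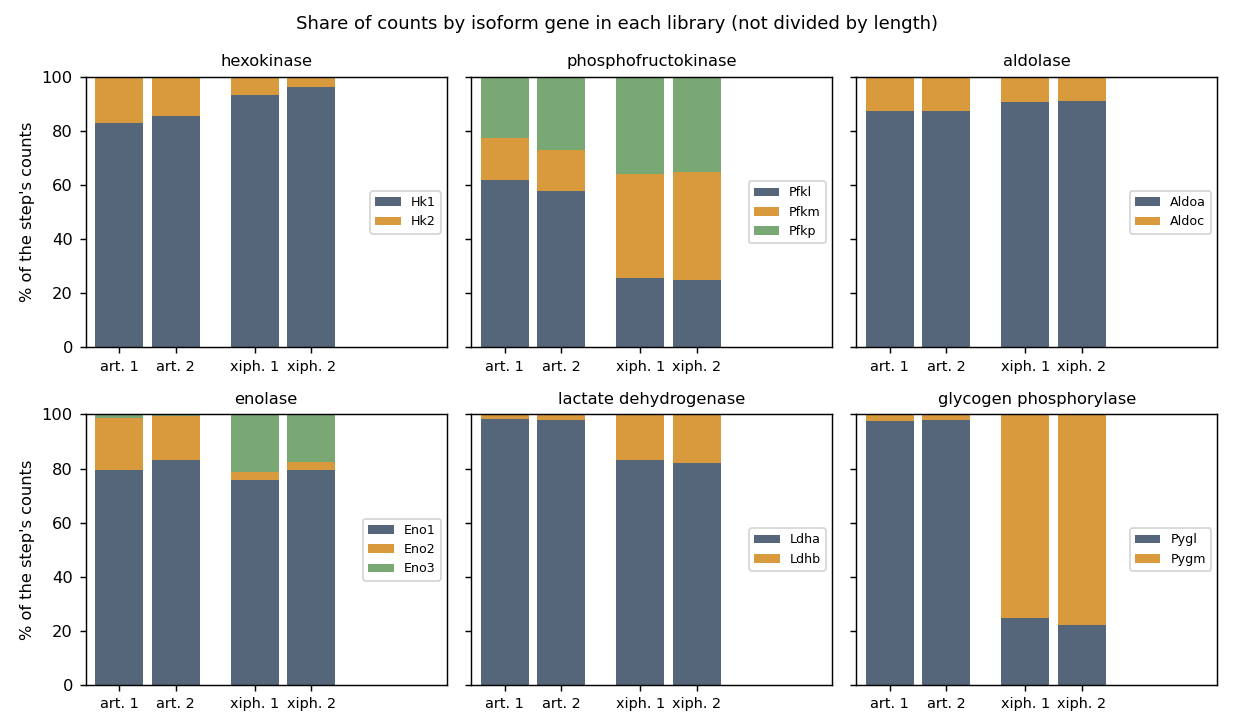
Percent of the counts of each enzyme step (y axis, not divided by length) that each isoenzyme gene among the 43 took, without other relatives such as Pygb, with the 2 articular libraries left of the 2 xiphoid libraries. The Pygl share of the glycogen phosphorylase bars was larger in articular than in xiphoid libraries, and the shares of Pygm, Ldhb and Eno3 were smaller.

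In all, 10 of the 20 glycolytic members were higher in articular cartilage, beside 25.0% of all genes tested, 4 were lower, beside 24.5% of all genes, and 6 did not pass. Their median log2 fold change was 0.34, against -0.02 over all genes tested. The 4 lower members were Pfkp, Pfkm, Eno3 and Ldhb. Pfkm and Eno3 are muscle forms, and the xiphoid libraries in which they were high also held the higher muscle marker sums. The part of muscle in these differences was not tested. Muscle creatine kinase, Ckm, had 1 and 3 counts in articular and 14746 and 12774 counts in xiphoid libraries, and Pfkm had 597 and 430 counts in articular against 1562 and 1298 counts in xiphoid libraries. Eno3 had 172 and 79 counts in articular against 3048 and 2433. The articular counts of muscle markers varied widely, from none for Pvalb to 257 and 166 for Tnnt3 and 2245 and 1639 for Tnni2. RefSeq names many pseudogene copies of these genes in the rat genome. It names 81 of Gapdh, 31 of Eno1, 30 of Ldha and 19 of Pkm. A further 13 are named for Pgam1, 9 for Aldoa, 8 for Pgk1 and 3 for Tpi1. Reads of those genes can be split among copies, and their levels are uncertain to that extent. Whether reads were split in this way was not examined.

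The pentose phosphate route, which makes NADPH and ribose, was mixed. Tkt, the transketolase of its non-oxidative arm, was at 258 and 273 CPM in articular against 196 and 185 CPM in xiphoid libraries (log2 fold change 0.48, SE 0.14, adjusted p = 0.0133). That call was lost without xiphoid replicate 1 (adjusted p = 0.0889) or xiphoid replicate 2 (0.157). Taldo1, the transaldolase that works beside it, went the other way, at 94.5 and 97.2 CPM in articular against 156 and 159 CPM in xiphoid libraries (log2 fold change -0.72, SE 0.14, adjusted p = 0.00129). Pgd, the second dehydrogenase of the oxidative arm, was at 178 and 139 CPM in articular against 165 and 164 CPM in xiphoid libraries, which overlapped, and did not pass (adjusted p = 0.823). Rpia, the ribose 5-phosphate isomerase, was at 22.0 and 14.5 CPM in articular against 26.1 and 16.9 CPM in xiphoid libraries and did not pass (adjusted p = 0.48). Without articular replicate 1 Rpia was called lower in articular cartilage (log2 fold change -0.57, adjusted p = 0.0451).

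Pyruvate enters the mitochondrion and is turned into acetyl-CoA by the pyruvate dehydrogenase complex. Pdha1, the catalytic alpha subunit, was at 146 and 178 CPM in articular against 104 and 120 CPM in xiphoid libraries (log2 fold change 0.53, SE 0.16, adjusted p = 0.0148). The call was lost without articular replicate 2 (adjusted p = 0.0591) or xiphoid replicate 1 (0.167). Pdhb, the beta subunit, was at 79.1 and 85.5 CPM in articular against 93.6 and 104 CPM in xiphoid libraries (log2 fold change -0.26, adjusted p = 0.168), and did not pass. Dlat, the acetyltransferase core, was at 28.0 and 23.9 CPM against 28.2 and 24.4 CPM and did not pass (adjusted p = 0.94). Of the kinases that switch the complex off, Pdk1 was at 167 CPM in each articular library against 47.0 and 48.6 CPM in xiphoid libraries (log2 fold change 1.81, SE 0.15, adjusted p = 1.14e-06). Pdk4, the kinase of fasting muscle and fat, was at 6.82 and 8.22 CPM in articular against 40.8 and 27.5 CPM in xiphoid libraries (log2 fold change -2.19, adjusted p = 1.66e-05). By the same edgeR test Pdk2 was also lower in articular cartilage (log2 fold change -1.08, adjusted p = 3.13e-04), and Pdk3 was higher (0.54, adjusted p = 0.0288).

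The 10 mitochondrial TCA cycle genes all had a negative log2 fold change, with a median of -0.43. By edgeR's quasi-likelihood test 6 were lower in articular cartilage, beside 24.5% of all genes tested, 0 were higher, beside 25.0%, and 4 did not pass. At an unadjusted p under 0.05, 7 were lower and 0 higher, and DESeq2 called 4 lower and 0 higher. The differences were small, from 1.13-fold to 2.05-fold. Suclg2, the GTP-forming beta subunit of succinyl-CoA synthetase, was at 40.2 and 36.3 CPM in articular against 90.5 and 66.3 CPM in xiphoid libraries (log2 fold change -1.04, SE 0.18, adjusted p = 5.24e-04). Suclg1, the alpha subunit of the same enzyme, was at 69.6 and 69.7 CPM in articular against 121 and 137 CPM in xiphoid libraries (log2 fold change -0.89, SE 0.15, adjusted p = 3.87e-04). Both articular libraries lay well below the xiphoid ones for each gene.

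Cs, citrate synthase, the entry enzyme of the cycle, was at 37.2 and 41.7 CPM in articular against 55.6 and 57.3 CPM in xiphoid libraries (log2 fold change -0.52, SE 0.16, adjusted p = 0.0176). Mdh2, the mitochondrial malate dehydrogenase that closes it, was at 107 and 124 CPM in articular against 148 and 176 CPM in xiphoid libraries (log2 fold change -0.49, SE 0.16, adjusted p = 0.0207). Idh2, the NADP-dependent isocitrate dehydrogenase of mitochondria, was 1.32-fold lower (adjusted p = 0.0423), and Idh3b, a subunit of the NAD-dependent enzyme, was 1.39-fold lower (adjusted p = 0.0211). These 4 calls depended on single libraries, and DESeq2 did not call Cs (adjusted p = 0.0517) or Idh2 (0.0849). Idh2 was also not called with upper-quartile factors (adjusted p = 0.0709) or among genes with a mean CPM of at least 5 (0.0562). Of the TCA cycle genes, 4 were called lower when articular replicate 1 was removed and 7 when articular replicate 2 was. The count was 3 when xiphoid replicate 1 was removed and 2 when xiphoid replicate 2 was. Suclg1 and Suclg2 were called in each case, whereas the adjusted p of Cs was 0.0974 and 0.133 without xiphoid replicates 1 and 2. The adjusted p of Idh2 was 0.0908 with articular replicate 1 removed, 0.135 with xiphoid replicate 1 removed and 0.345 with xiphoid replicate 2 removed. That of Idh3b was 0.234 and 0.0811 without xiphoid replicates 1 and 2. Mdh2 was at 0.0501 without articular replicate 1 and 0.277 without xiphoid replicate 2. Idh3b overlaps Nop56, whose log2 fold change was 0.69, the opposite sign.

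The 4 TCA cycle members that did not pass were the other subunits of the NAD-dependent isocitrate dehydrogenase and the 2-oxoglutarate dehydrogenase complex. Idh3g was at 57.1 and 67.6 CPM in articular against 76.6 and 85.1 CPM in xiphoid libraries (log2 fold change -0.38, adjusted p = 0.0684), and was called without articular replicate 2 (-0.50, adjusted p = 0.0179). Idh3a was at 42.2 and 48.7 CPM against 53.2 and 49.3 CPM (adjusted p = 0.4), Dlst at 58.7 and 55.7 CPM against 62.3 and 69.7 CPM (adjusted p = 0.293), and Ogdh at 41.2 and 41.9 CPM against 53.5 and 44.0 CPM (adjusted p = 0.269). Of the summed counts of the 3 isocitrate dehydrogenase subunit genes, Idh3b and Idh3g took shares that overlapped between tissues. The share of Idh3a did not overlap, at 26.0% ± 0.771 in articular and 22.8% ± 0.846 in xiphoid cartilage (SD, n = 2 each). The TCA cycle list held 0.0602% and 0.0644% of all counts in articular libraries, against 0.0876% and 0.0889% in xiphoid libraries. Muscle, adipocyte and fibroblast marker sums were also higher in both xiphoid libraries, and their part in these small differences was not tested.

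Among the 3 cytosolic dehydrogenases of the 43 genes, which exchange carbon and reducing power with the cycle, Mdh1 differed most. Mdh1, the cytosolic malate dehydrogenase of the malate-aspartate shuttle, was at 194 and 211 CPM in articular against 518 CPM in each xiphoid library (log2 fold change -1.35, SE 0.14, adjusted p = 9.71e-06). Idh1, the cytosolic NADP-dependent isocitrate dehydrogenase, was at 33.1 and 42.5 CPM in articular against 61.1 and 65.1 CPM in xiphoid libraries (log2 fold change -0.74, SE 0.17, adjusted p = 0.00359). Me1, the cytosolic malic enzyme, was at 195 and 284 CPM in articular against 162 and 201 CPM in xiphoid libraries, which overlapped, and did not pass (log2 fold change 0.40, adjusted p = 0.0987). Without articular replicate 1, the lower of its articular libraries, Me1 was called higher in articular cartilage (log2 fold change 0.65, adjusted p = 3.22e-04).

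Glycogen enzymes showed the largest difference of all members. Pygm, the muscle glycogen phosphorylase, was at 7.30 and 5.78 CPM in articular against 358 and 381 CPM in xiphoid libraries, 56.3-fold lower in articular cartilage (Entrez gene 24701, log2 fold change -5.81, SE 0.19, adjusted p = 4.62e-10). Pygl, the liver-type phosphorylase, was at 307 and 294 CPM in articular against 118 and 109 CPM in xiphoid libraries, 2.64-fold higher (Entrez gene 64035, log2 fold change 1.40, SE 0.14, adjusted p = 7.01e-06). Of the counts of the pair, Pygl took 97.9% ± 0.282 in articular and 23.6% ± 1.80 in xiphoid cartilage (SD, n = 2 each). With Pygb, the brain-type phosphorylase, added to the step, Pygb took 14.9% and 15.4% in articular against 27.5% and 28.0% in xiphoid libraries. In that step Pygm took 1.98% and 1.63% in articular against 54.5% and 56.0% in xiphoid libraries, and Pygl the rest. Gys1, the glycogen synthase outside liver, was at 96.9 and 105 CPM in articular against 50.4 and 51.0 CPM in xiphoid libraries (log2 fold change 0.99, SE 0.15, adjusted p = 1.75e-04). Pygm counts were 61 and 45 in articular cartilage against 3043 and 2783 in xiphoid cartilage. Most muscle markers had fewer articular counts than Pygm, such as Ckm with 1 and 3. Tnnt3, with 257 and 166, and Tnni2, with 2245 and 1639, had more. The part of muscle in the Pygm difference was not tested.

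Around the members, 96 other genes of the same pathways were listed, of which 87 were in the table and 76 were tested. Of these 19 were higher (25.0%, the same share as of all genes), 30 were lower (39.5%, against 24.5%) and 27 did not pass. Of 10 tested genes of glucose and lactate transport, 4 were higher and 2 lower. Slc2a1, the glucose transporter GLUT1, was 2.73-fold higher (246.0 ± 6.47 against 90.2 ± 4.77 CPM, SD, n = 2 each, adjusted p = 5.72e-06). Slc16a3, the lactate exporter MCT4, was at 291 and 166 CPM in articular against 33.7 and 27.0 CPM in xiphoid libraries (log2 fold change 2.91, SE 0.26, adjusted p = 1.09e-05). Slc16a1, the related transporter MCT1, was 2.95-fold higher (adjusted p = 3.28e-05), and Bsg, the chaperone of both, was 2.17-fold higher (adjusted p = 1.17e-04). In contrast Slc2a4, the insulin-regulated GLUT4 of muscle and fat, was at 1.32 and 1.80 CPM in articular against 96.9 and 99.7 CPM in xiphoid libraries (log2 fold change -5.97, SE 0.23, adjusted p = 1.63e-09).

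**Figure D5:**
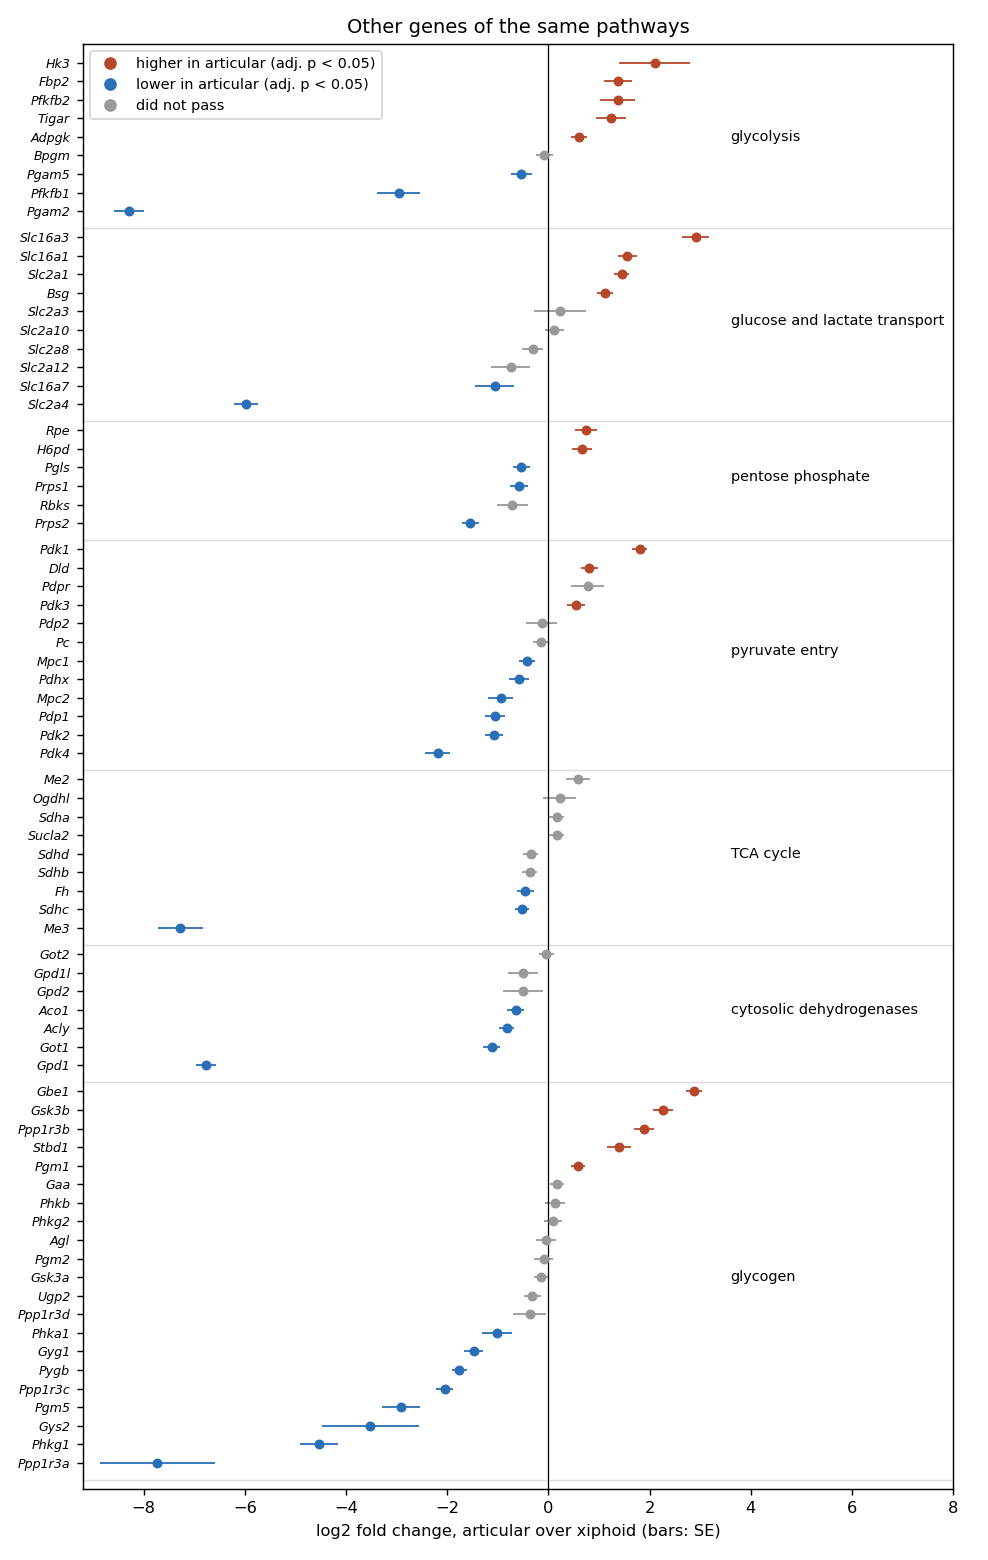
Log2 fold change, articular over xiphoid cartilage, with its standard error, of tested genes of the same pathways that are not among the 43. Slc16a3, Gbe1 and Gsk3b lay farthest to the right and Pgam2, Ppp1r3a, Me3, Gpd1 and Slc2a4 farthest to the left, where Ppp1r3a had no count in either articular library.

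In glycogen metabolism Gbe1, the branching enzyme, was at 206 and 229 CPM in articular against 28.6 and 31.0 CPM in xiphoid libraries (log2 fold change 2.87, SE 0.16, adjusted p = 3.5e-08). Gsk3b, a kinase that inactivates glycogen synthase among many other targets, was 4.82-fold higher (43.8 ± 0.887 against 9.05 ± 1.17 CPM, SD, n = 2 each, adjusted p = 1.89e-06). Ppp1r3b, a subunit that targets protein phosphatase 1 to glycogen, was 3.70-fold higher (adjusted p = 7.32e-06). Its relative Ppp1r3c was 4.15-fold lower (158.7 ± 23.7 against 658.4 ± 23.5 CPM, adjusted p = 6.62e-07). Phkg1, the catalytic subunit of muscle phosphorylase kinase, was at 0.718 and 0.514 CPM in articular against 14.6 and 14.8 CPM in xiphoid libraries (log2 fold change -4.53, adjusted p = 1.15e-06). Pygb was lower in articular cartilage (log2 fold change -1.76, adjusted p = 1.29e-06). Pgm5, a phosphoglucomutase relative of muscle attachment sites, was at 3.35 and 1.16 CPM in articular against 16.5 and 18.1 CPM in xiphoid libraries (log2 fold change -2.91), which was -3.88 without articular replicate 1.

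Several relatives of members that are typical of muscle or fat were nearly absent from articular cartilage. Pgam2, the muscle phosphoglycerate mutase, was at 0.239 and 0.771 CPM in articular against 173 and 147 CPM in xiphoid libraries (log2 fold change -8.29, SE 0.31, adjusted p = 1.07e-09). Its log2 fold change was -7.67 without articular replicate 1 and -9.29 without articular replicate 2, since the articular libraries held few counts. Me3, the mitochondrial NADP-dependent malic enzyme, had 2 counts in all in articular and 341 in xiphoid libraries, a ratio of 174 toward xiphoid cartilage with an exact 95% counting interval of 47.9 to 1440, which covers counting error only. Gpd1, the cytosolic glycerol 3-phosphate dehydrogenase of fat and muscle, was at 3.23 and 3.47 CPM in articular against 378 and 350 CPM in xiphoid libraries (log2 fold change -6.76, SE 0.20, adjusted p = 2.07e-10). The list of TCA cycle genes outside the 43 also held the malic enzymes Me2 and Me3, which stand beside the cycle. Of its 10 tested genes 4, Me3 among them, were lower in articular cartilage by edgeR, beside 24.5% of all genes tested. Of the others 0 were higher, beside 25.0%, and 6 did not pass. At an unadjusted p under 0.05, only Me2 was higher, and 6 were lower, Me3 among them. By sign, 4 of these 10 genes, Me2 among them, had a positive log2 fold change. The other 6, Me3 among them, had a negative one, unlike the members, which were all negative. Sdha, the flavoprotein of succinate dehydrogenase, was among those that did not pass (adjusted p = 0.369).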

How the data were processed

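RNA was extracted with Trizol from frozen cartilage and sequenced, per the labels' protocols. The authors deposited 1 table of expected counts, estimated reads per gene that need not be whole (3.91% of values were not), not normalized, per the file headers and values. The submitters' processing notes name RSEM 1.2.12, Bowtie2 2.2.6, StringTie 1.2.1, HISAT2 2.0.4 and build rn6, without roles or order. Whether counting used strand is not stated in those notes.

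Counts were rounded and filtered with filterByExpr by tissue, which left 11202 genes, scaled by TMM and tested with edgeR 4.0.16 in R 4.3.3 (glmQLFit with robust estimation, glmQLFTest, tissue as the only term, 2-sided, Benjamini-Hochberg). The biological coefficient of variation was 14.1%, and the fit had 2 residual degrees of freedom, with 10 prior ones in the median. Standard errors are the log2 fold change divided by the square root of F. Across genes, Spearman's rho was 0.985 and 0.99 within tissues and 0.878 to 0.89 between them, where genes are not independent replicates. The procedure was tested on simulated data, where it missed most of the smallest changes, so not passing does not show equal levels.

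The 43 genes, the lists and the tests were chosen with earlier results of these data known. Named genes were, in each role group, those past the threshold with the largest change (up to 8 in glycolysis and 4 elsewhere) and up to 3 abundant ones that did not pass, plus up to 6 other pathway genes in each direction that reached 10 CPM in 1 tissue. Other members and Slc2a1, Bsg, Pdk2, Pdk3, Pdk4, Ppp1r3c, Pygb, Sdha, Me2, Ckm, Tnni2, Tnnt3, Gsn and Col1a1 were named after their values were seen. Some pathway genes are counted but not reported singly here. Isoenzyme shares were planned per length, but no transcript lengths were used here. Overlaps, copies and promoter windows are from RefSeq, assembly GRCr8, matched by Entrez identifier. Alternatives were RLE and upper-quartile factors, library sizes alone, no count filter, a minimum mean CPM of 5, limma-voom 3.58.1, DESeq2 1.42.0, a replicate block, leaving out markers of other cell types, leaving out the 12 genes over 1% of a library, and leaving out each library.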

Additional observations from a re-analysis of the deposited data

How the results depend on the processing

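Of the 28 called members, 20 kept their call under all 14 alternatives and 8 (Cs, Gapdh, Idh2, Idh3b, Mdh2, Pdha1, Pfkfb3 and Tkt) lost it under at least 1. Members higher in articular cartilage numbered 11 to 16 and members lower 10 to 17. Of the 55 members and named pathway genes, 5 turned direction under some alternative, and none of the 5 was called in the comparison as reported. Dlat turned to 0.027 with upper-quartile factors, 0.0003 with a mean CPM of at least 5, and, leaving out 1 library each, ranged from -0.14 to 0.10. In the same way Pfkfb4 ranged from -0.81 to 3.62, Pgd from -0.24 to 0.12 and Rpia from -0.57 to 0.13. Eno1 turned to -0.0027 without xiphoid replicate 1. Leaving out 1 library each, the median of the members ranged from -0.21 to 0.0285, turning sign without articular replicate 2, and the number called lower in the TCA cycle from 2 to 7. In the same way the number called ranged from 0 to 1 higher and 1 to 2 lower in the pentose phosphate route, 0 to 1 higher in pyruvate entry and 0 to 1 higher among the cytosolic dehydrogenases. Same-numbered libraries share only a number (the correlation of their deviations was 0.24). With a replicate block 16 members were higher and 17 lower, and the 5 members gained were Pkm and Me1 (higher, 1 of them a cytosolic dehydrogenase) and Aldoa, Pdhb and Idh3g (lower, 1 of them in pyruvate entry). Their adjusted p with the block in edgeR was 0.00741 for Pkm, 2.85e-04 for Me1, 3.04e-05 for Aldoa, 0.0392 for Pdhb and 0.00355 for Idh3g. The cause of these changes was not tested. Isoenzyme shares divided by length were not run. Scaling moved the median of all genes by less than 0.1 on the log2 scale.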
